A study of Mus musculus with 8 samples.

Results

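Lipoprotein genes and the genes of cholesterol efflux under the liver X receptors (LXR) were read from gene counts of portal fibroblasts that had received a Klf4 lentivirus or a control lentivirus. They were 10 genes, found by symbol among the 32859 genes of the deposited table: Apoe, Apob, Apoc1 and Apod (apolipoproteins), Abca1 and Abcg1 (cholesterol exporters), Nr1h3 and Nr1h2 (LXR alpha and LXR beta) and Lrp1 and Vldlr (lipoprotein receptors). Each symbol matched 1 gene ID, and all 10 passed the filter on low counts. In edgeR's quasi-likelihood test all 10 passed an adjusted p of 0.05, as did 72.2% of all genes tested, and the groups did not overlap for all 10, as for 69.2% of all genes. Of them, 8 were lower in Lenti-Klf4 (34.7% of all genes tested), led by Apoe at 16.7-fold lower and Apoc1, which had 5 counts in Lenti-Klf4, against 733 in Lenti-Ctrl. The other 2 were higher (37.5% of all genes tested), Apod 204-fold and Vldlr 1.12-fold. The median log2 fold change of the 10, Lenti-Klf4 over Lenti-Ctrl, was -1.10, against 0.03 for all genes tested.

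The groups were Lenti-Klf4 (4 libraries), cells given a lentivirus that overexpresses Klf4, and Lenti-Ctrl (4 libraries), cells given a control lentivirus. Both groups were Clec3b-tdT+ cells, primary fibroblasts of the hepatic portal area that were sorted by the red reporter tdT from livers of normal Clec3bCreERT2;R26tdT mice, in which a Clec3b-driven, inducible Cre switches the reporter on. The reporter records past Cre activity and not the present level of Clec3b. The age and sex of the mice, the dose of virus, the time after transduction, and whether replicate libraries stem from separate mice or cultures are not stated, so p-values measure only the spread between these libraries.

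Apolipoproteins are the protein part of lipoprotein particles. ABCA1 and ABCG1 load cholesterol from a cell onto APOA1, APOE and HDL, and LXR alpha and LXR beta, nuclear receptors that bind oxysterols, switch on their genes together with Apoe, Apoc1 and the lipogenic factor Srebf1. In the liver, hepatocytes make most plasma apolipoproteins, and Kupffer cells and other macrophages are a further source of APOE. LRP1 and VLDLR, members of the LDL receptor family, take up APOE-rich remnant particles, and LRP1 also clears proteases and their inhibitors.

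Total counts were 57950960 to 82847723 in Lenti-Klf4 and 57306334 to 87361995 in Lenti-Ctrl. Normalised read counts are given as CPM, a count scaled by the library total and its TMM factor. Klf4 was higher, at 228 ± 17.9 CPM in Lenti-Klf4 and 87.3 ± 3.82 CPM in Lenti-Ctrl (SD, n = 4 each), but RNA from the vector and from the gene itself cannot be told apart here. Postn, periostin, was lower (log2 fold change -2.13). In all, 18439 genes were tested.

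The labelled cell type was also checked against markers. Clec3b itself was near 0, with 73 counts in all of Lenti-Klf4 and 4 in all of Lenti-Ctrl. Fibroblast genes were abundant, with 7 markers summing to 9945 to 11472 CPM in Lenti-Klf4 and 25145 to 26332 CPM in Lenti-Ctrl. Markers of macrophages were present and differed between the groups: 18 of 18 were lower in Lenti-Klf4, with summed levels of 218 to 304 CPM in Lenti-Klf4 and 5993 to 6442 CPM in Lenti-Ctrl. Kupffer cell markers summed to 1.57 to 3.28 CPM in Lenti-Klf4 and 311 to 333 CPM in Lenti-Ctrl, and Clec4f, Timd4 and Cd207 had 0 counts in Lenti-Klf4. Endothelial markers, lower for 11 of 11 tested, summed to 103 to 146 CPM in Lenti-Klf4 and 1163 to 1184 CPM in Lenti-Ctrl. Hepatocyte markers (4 higher and 2 lower of 6 tested) summed to 69.7 to 87.0 CPM in Lenti-Klf4 and 412 to 423 CPM in Lenti-Ctrl. The median log2 fold change of the 6 was 2.67, but most of the Lenti-Ctrl sum came from Trf and Ass1, the 2 that fell. Trf averaged 24.0 CPM in Lenti-Klf4 and 294 CPM in Lenti-Ctrl, and Ass1 48.8 CPM in Lenti-Klf4 and 125 CPM in Lenti-Ctrl. Defining genes of hepatocytes were low, with Alb at 2.98 ± 0.471 CPM in Lenti-Klf4 and 0.271 ± 0.284 CPM in Lenti-Ctrl. Ttr and Cyp2e1 had 0 counts in Lenti-Ctrl but not in Lenti-Klf4. On the Y chromosome, Uty, Kdm5d, Eif2s3y and Ddx3y, 4 genes looked at after the data were seen, summed to 49.4 to 59.8 CPM in Lenti-Klf4 and 213 to 242 CPM in Lenti-Ctrl. The part of these differences in the results was not tested. In bulk RNA, fewer cells of a type and less RNA per cell cannot be told apart.

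Promoters of 8 of the 10 genes were matched in RefSeq's table (build GRCm38.p6, 250 bases before to 50 after a gene's start). The promoters of Apoe (first of 3 starts, chr7:19699139-19699438, minus strand), Apod (chr16:31314759-31315058, minus strand) and Abca1 (chr4:53159846-53160145, minus strand) are shown because these are the apolipoprotein that fell from the highest level, the gene that rose most, and the exporter that is the best known LXR target. Capitals mark CACCC, the core of the boxes that KLF4 and its relatives bind, GGGCGG, the GC box of SP factors, and a near match to the LXR element, each on either strand.
Apoe: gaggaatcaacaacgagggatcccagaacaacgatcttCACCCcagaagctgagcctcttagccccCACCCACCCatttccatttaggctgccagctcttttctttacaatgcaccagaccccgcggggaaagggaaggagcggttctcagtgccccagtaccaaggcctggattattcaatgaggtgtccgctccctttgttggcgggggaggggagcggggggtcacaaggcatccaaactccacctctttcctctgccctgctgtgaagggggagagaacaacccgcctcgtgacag
Apod: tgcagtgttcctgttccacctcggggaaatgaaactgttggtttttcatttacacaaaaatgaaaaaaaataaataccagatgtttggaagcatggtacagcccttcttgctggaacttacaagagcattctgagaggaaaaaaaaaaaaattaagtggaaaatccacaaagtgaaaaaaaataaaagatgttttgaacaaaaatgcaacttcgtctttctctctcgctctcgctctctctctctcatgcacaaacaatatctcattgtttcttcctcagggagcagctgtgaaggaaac
Abca1: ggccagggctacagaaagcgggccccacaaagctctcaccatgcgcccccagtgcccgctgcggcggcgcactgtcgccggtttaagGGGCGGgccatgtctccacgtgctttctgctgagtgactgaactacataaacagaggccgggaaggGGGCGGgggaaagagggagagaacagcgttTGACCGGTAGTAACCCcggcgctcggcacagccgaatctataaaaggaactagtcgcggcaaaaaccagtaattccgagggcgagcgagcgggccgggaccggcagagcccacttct
The Apoe promoter shown held 3 CACCC matches, at -212, -184 and -180 from the start, the last of which shares a base with the one before it. The promoters of the other 2 Apoe starts held 0 and 4. CACCC occurs in 57.5% of the 32851 promoters of the table. The Apod promoter held none of the motifs searched, and its GC content was 37.3%, against a median of 52.7% over all promoters. The Abca1 promoter held 2 GGGCGG matches, which 35.7% of promoters hold. The LXR element is a direct repeat of AGGTCA with 4 bases between its copies (DR4). No promoter matched here held an exact DR4, an AGGTCA or a CCACACCC, which occur in 0.0152%, 16.3% and 3.56% of promoters. When up to 3 mismatches were allowed, a choice made after the exact search, Abca1 had 1 match on the minus strand from -67 to -52, and 21.9% of promoters have such a match. These matches describe letters in the window and not binding.

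Apoe, the main apolipoprotein of remnant particles and of macrophages, was per transcript length the most abundant of the 10 genes in Lenti-Ctrl (ENSMUSG00000002985, GRCm39, chromosome 7, 19430034 to 19433113, minus strand). Its normalised read count was 77.3, 112, 101 and 102 CPM in the 4 Lenti-Klf4 libraries, against 1596, 1732, 1583 and 1619 CPM in the 4 Lenti-Ctrl libraries. All Lenti-Klf4 libraries lay far below those of Lenti-Ctrl, and Lenti-Klf4 replicate 1 was the lowest. The log2 fold change was -4.06 (SE 0.0955) and the adjusted p in edgeR was 2.2e-12. Per transcript length Apoe averaged 45.6 ± 7.08 FPKM in Lenti-Klf4 and 661 ± 25.3 FPKM in Lenti-Ctrl, and it ranked 1027 in Lenti-Klf4 and 43 in Lenti-Ctrl among all genes by mean FPKM.

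Apoc1, a small exchangeable apolipoprotein whose gene neighbours Apoe (ENSMUSG00000040564, chromosome 7, 19423406 to 19426585, minus strand), had 5, 0, 0 and 0 counts in the Lenti-Klf4 libraries, against 267, 130, 171 and 165 counts in the Lenti-Ctrl libraries. It was thus detected in only 1 Lenti-Klf4 library. The fitted log2 fold change was -7.25 (SE 0.601) and the adjusted p in edgeR was 2.48e-07. With all Lenti-Klf4 libraries the fitted level was 152-fold lower. Without Lenti-Klf4 replicate 1, the only one with counts, the fitted value was -10.53. The other 3 libraries held 0 counts, so their level alone was at least 188-fold lower against a floor of 3 counts over those libraries. Such floors cover counting error only.

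The neighbourhood of Apoe on chromosome 7 did not move as a block. Of 10 genes listed from Relb to Cblc, 8 were tested, and 3 rose while 5 fell. Apoc2, the activator of lipoprotein lipase, had 8 counts over the Lenti-Klf4 libraries and 2015 over the Lenti-Ctrl libraries, and its log2 fold change was -8.06 (adjusted p = 3.2e-09 in edgeR). Apoc4, between Apoc2 and Apoc1, had 0 counts in both groups. Tomm40, a subunit of the mitochondrial import pore and the next gene on the other side of Apoe, was higher, at 133 ± 3.71 CPM in Lenti-Klf4 and 106 ± 3.05 CPM in Lenti-Ctrl (log2 fold change 0.33, adjusted p = 2.49e-06). Nectin2, an adhesion receptor, also rose (0.20), and Clptm1 fell (-0.48).

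Apob, the structural protein of VLDL and LDL (ENSMUSG00000020609, chromosome 12, 8027648 to 8066835, plus strand), stood at 4.94, 7.24, 7.55 and 7.14 CPM in the Lenti-Klf4 libraries, against 39.7, 38.9, 41.6 and 43.7 CPM in the Lenti-Ctrl libraries. The groups did not overlap, and Lenti-Klf4 replicate 1 was again the lowest. The log2 fold change was -2.62 (SE 0.118) and the adjusted p in edgeR was 7.26e-10. The Apob transcript is very long, so this is a low level per length, 0.479 ± 0.0878 FPKM in Lenti-Klf4 and 2.55 ± 0.152 FPKM in Lenti-Ctrl. Mttp, which loads lipid onto APOB, did not pass, at 8.77 ± 1.52 CPM in Lenti-Klf4 and 8.32 ± 1.43 CPM in Lenti-Ctrl (adjusted p = 0.674).

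Apod encodes a lipocalin that binds arachidonic acid and other small lipids and is unrelated to the exchangeable apolipoproteins (ENSMUSG00000022548, chromosome 16, 31115010 to 31133626, minus strand). It stood at 66.5, 53.8, 59.2 and 54.8 CPM in the Lenti-Klf4 libraries, against 0.332, 0.171, 0.242 and 0.386 CPM in the Lenti-Ctrl libraries. It was at the edge of detection in all 4 Lenti-Ctrl libraries, with 71 counts over the group, and had 16610 counts over the Lenti-Klf4 group. The log2 fold change was 7.67 (SE 0.149) and the adjusted p in edgeR was 4.98e-13. Its rank by mean FPKM was 2335 in Lenti-Klf4 and 18597 in Lenti-Ctrl.

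**Figure D1:**
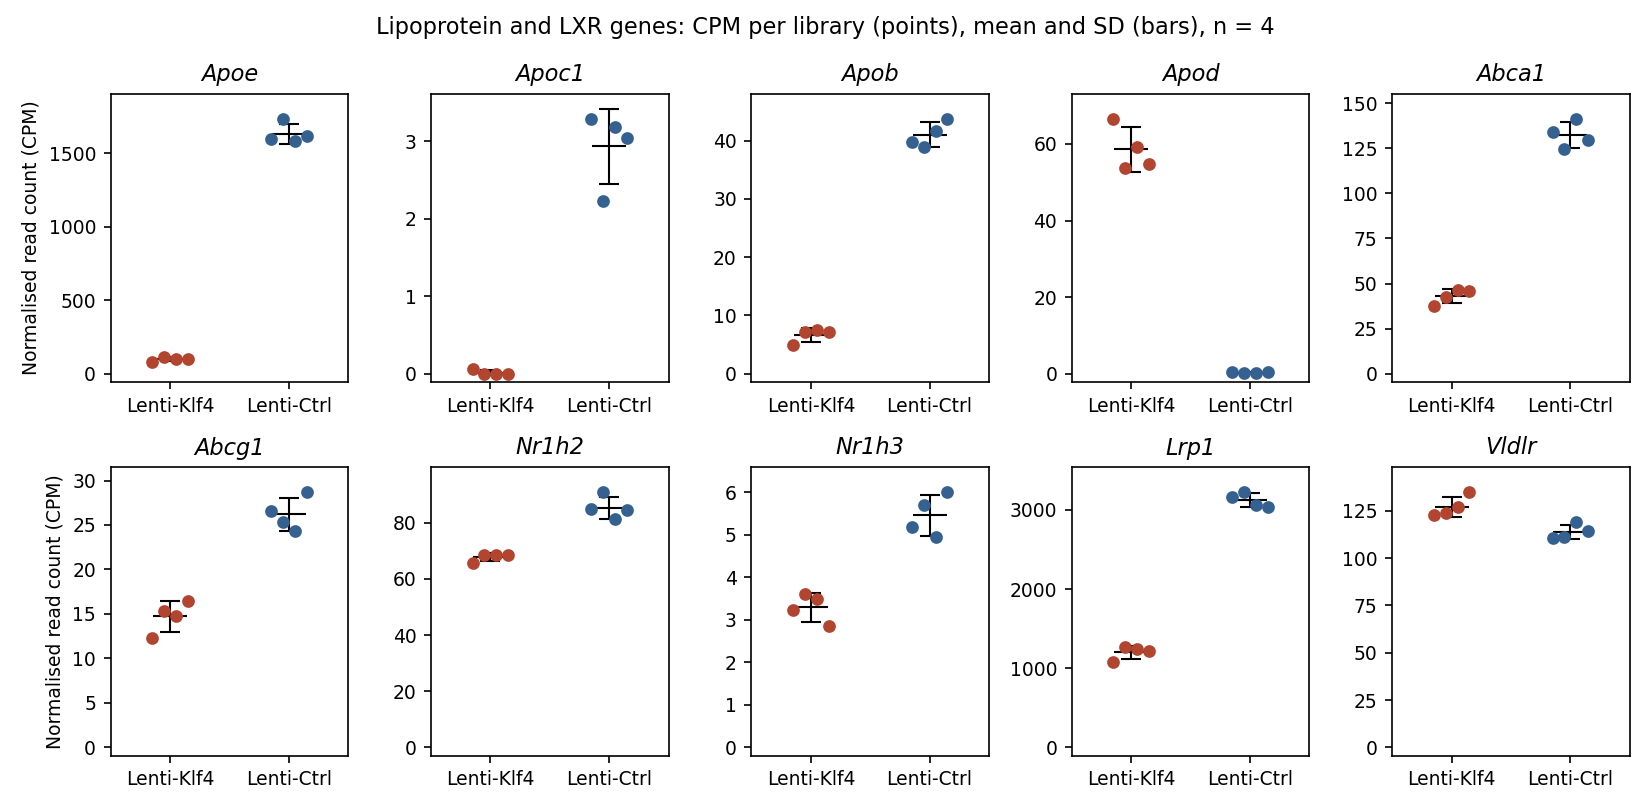
Normalised read count (CPM, linear axes from 0) of each of the 10 genes in every library of Lenti-Klf4 (left, red) and Lenti-Ctrl (right, blue); points are libraries, bars the mean and SD (n = 4 each). For no gene do the groups overlap; Apoe sits at 77.3 to 112 CPM in Lenti-Klf4 and 1583 to 1732 CPM in Lenti-Ctrl, and Apod and Vldlr are the genes with Lenti-Klf4 on top.

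Apolipoprotein genes went in both directions. Of 15 tested, with the 4 members counted, 7 were higher and 6 lower in Lenti-Klf4, with a median log2 fold change of 0.33, against 0.03 for all genes tested. Clu, the chaperone clusterin or apolipoprotein J, fell to 54.8 ± 6.24 CPM in Lenti-Klf4, against 245 ± 9.93 CPM in Lenti-Ctrl (log2 fold change -2.16, adjusted p = 3.87e-11). Apol9b rose (1.61), but Apol9a and Apol9b are close copies and their shares of reads are uncertain. Apoo, named as an apolipoprotein but known as a subunit of the mitochondrial MICOS complex, rose by 0.55 on the log2 scale. Apoa1, the main protein of HDL, had 26 counts over the Lenti-Klf4 libraries and 0 over the Lenti-Ctrl libraries and was not tested.

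Abca1, which passes phospholipid and cholesterol to lipid-poor apolipoproteins (ENSMUSG00000015243, chromosome 4, 53030787 to 53159895, minus strand), stood at 37.6, 42.7, 46.4 and 45.7 CPM in the Lenti-Klf4 libraries, against 134, 124, 141 and 129 CPM in the Lenti-Ctrl libraries. All Lenti-Klf4 libraries lay below those of Lenti-Ctrl. The log2 fold change was -1.62 (SE 0.0651) and the adjusted p in edgeR was 2.53e-10, for a 3.07-fold lower level.

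Abcg1, which exports cholesterol to mature HDL (ENSMUSG00000024030, chromosome 17, 31276649 to 31336962, plus strand), stood at 12.3, 15.4, 14.8 and 16.4 CPM in the Lenti-Klf4 libraries, against 26.5, 25.3, 24.3 and 28.7 CPM in the Lenti-Ctrl libraries. It fell too, with no overlap, by less than Abca1: the log2 fold change was -0.83 (SE 0.0932) and the adjusted p in edgeR was 4.36e-06. Within a library the FPKM of Abca1 was 2.07 ± 0.131 times that of Abcg1 in Lenti-Klf4 and 3.58 ± 0.384 times in Lenti-Ctrl (SD, n = 4 each), and the ranges did not overlap. Of the 15 other ABCA and ABCG genes tested, 6 were higher and 3 lower (8 and 2 with library totals alone). Abcg2, an exporter of drugs and urate, rose (0.44, adjusted p = 2.05e-06), while Abca7 (39.6 ± 2.68 CPM in Lenti-Klf4 and 39.7 ± 1.58 CPM in Lenti-Ctrl) and Abca2 (41.7 ± 4.64 CPM in Lenti-Klf4 and 40.6 ± 1.38 CPM in Lenti-Ctrl) did not pass, although both passed as higher with library totals alone.

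Both LXR genes were lower in Lenti-Klf4, by small amounts. Nr1h2, LXR beta, the broadly expressed form (ENSMUSG00000060601, chromosome 7, 44199040 to 44203375, minus strand), stood at 65.8, 68.5, 68.5 and 68.7 CPM in the Lenti-Klf4 libraries, against 85.1, 90.8, 81.4 and 84.4 CPM in the Lenti-Ctrl libraries. The groups were narrow and did not overlap. Its log2 fold change was -0.33 (SE 0.0401) and the adjusted p in edgeR was 8.73e-06. Nr1h3, LXR alpha, the form enriched in liver and macrophages (ENSMUSG00000002108, chromosome 2, 91014406 to 91033179, minus strand), stood at 3.22, 3.62, 3.48 and 2.85 CPM in the Lenti-Klf4 libraries, against 5.18, 5.71, 4.96 and 5.999 CPM in the Lenti-Ctrl libraries. Per length it was the least abundant of the LXR and exporter genes. Its log2 fold change was -0.73 (SE 0.142) and the adjusted p in edgeR was 0.000535. Per length, Nr1h2 was 15.7 ± 1.77 times as high as Nr1h3 in Lenti-Klf4 and 11.9 ± 0.860 times in Lenti-Ctrl, so LXR beta was the main form in both groups.

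The partners of LXR split. Of 18 tested partners and co-regulators, 8 were higher, 6 lower and 4 did not pass, with a median of 0.06; with library totals alone the split was 11 higher and 2 lower. Rxra, the usual heterodimer partner, fell to 65.2 ± 1.93 CPM in Lenti-Klf4, against 105 ± 2.59 CPM in Lenti-Ctrl (log2 fold change -0.69, adjusted p = 2.93e-09), and Rxrb rose (0.32). Hdac3 (0.57) and Tbl1x (0.44), subunits of corepressor complexes of nuclear receptors, rose. Enzymes that make or remove oxysterol ligands went both ways, 3 higher and 4 lower of 7 tested. Ch25h, cholesterol 25-hydroxylase, fell to 3.70 ± 0.687 CPM in Lenti-Klf4, against 37.6 ± 3.29 CPM in Lenti-Ctrl (-3.35, adjusted p = 1.68e-10), and Cyp27a1, the sterol 27-hydroxylase, fell by 1.13 on the log2 scale.

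Genes known as LXR targets did not move together. With the members left out, 14 were tested, and 6 were higher, 6 lower and 2 did not pass, with a median of 0.07. With the members counted, 6 were higher and 11 lower of 19 tested. Apoc2, described above beside Apoe, is also in this list and fell most (-8.06). Srebf1, the lipogenic transcription factor, fell to 80.4 ± 2.09 CPM in Lenti-Klf4, against 124 ± 2.55 CPM in Lenti-Ctrl (-0.62, adjusted p = 4.06e-09). The desaturase genes Scd1 (1.30) and Scd2 (1.15) rose. Lpl, lipoprotein lipase, had 207, 187, 183 and 193 CPM in the Lenti-Klf4 libraries, against 50.8, 54.4, 58.4 and 53.5 CPM in the Lenti-Ctrl libraries. Pltp, which moves phospholipid between particles, had 105, 128, 126 and 132 CPM in the Lenti-Klf4 libraries, against 35.9, 33.1, 35.3 and 36.4 CPM in the Lenti-Ctrl libraries. Both rose with no overlap, by 1.83 (adjusted p = 9.23e-12) and 1.80 (adjusted p = 1.08e-10) on the log2 scale in edgeR's test. Mylip, a ubiquitin ligase that degrades lipoprotein receptors, did not pass, at 12.5 ± 1.59 CPM in Lenti-Klf4 and 11.2 ± 1.34 CPM in Lenti-Ctrl (adjusted p = 0.257), and passed as higher with library totals alone. Several of these genes have other regulators, and the lists share members.

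**Figure D2:**
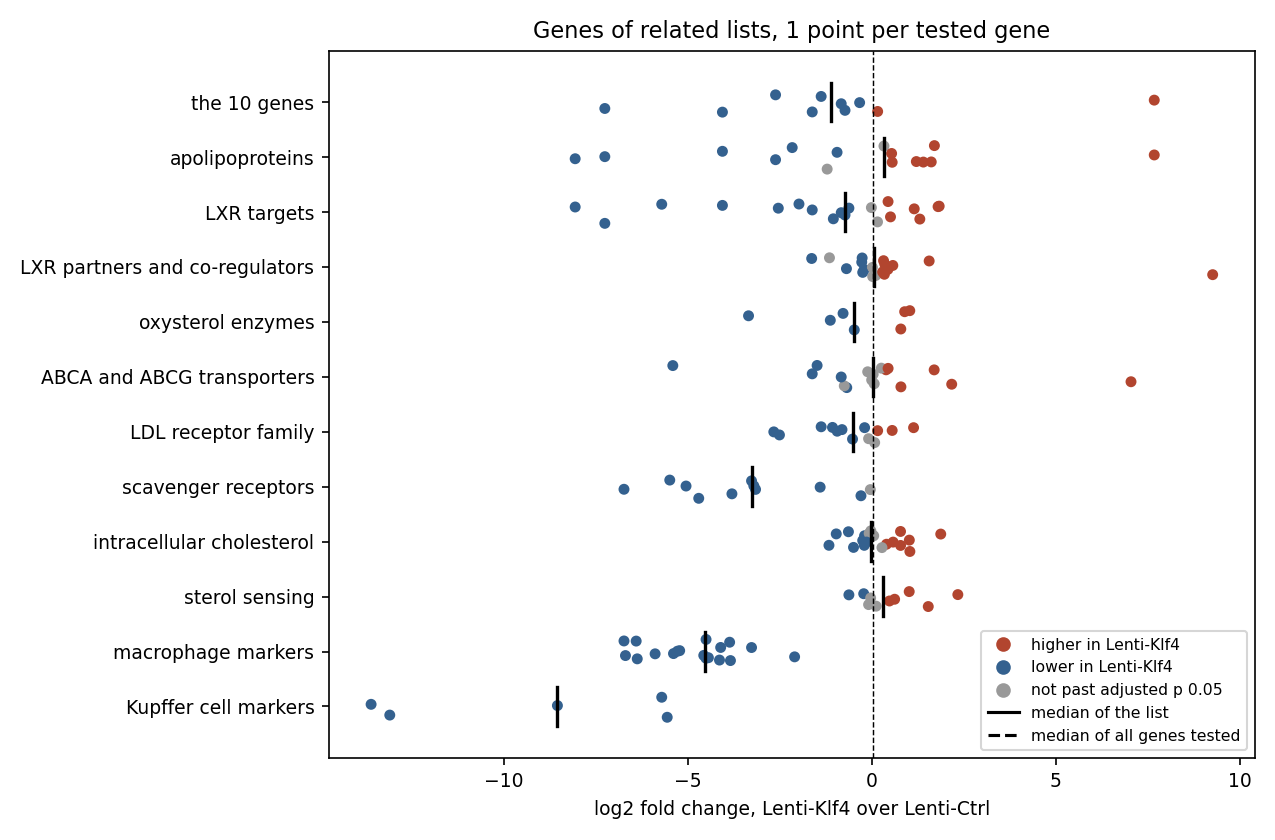
Log2 fold change (Lenti-Klf4 over Lenti-Ctrl) of each tested gene in the related lists; red points passed higher, blue lower and grey did not pass an adjusted p of 0.05, solid bars are list medians and the dashed line the median of all genes tested (0.03). The LXR targets, with a median of -0.73 when the members among them are included, hold genes on both sides, whereas scavenger receptors and macrophage markers lie to the left; points beyond -10, and Abca14 at 7.04, have 0 counts in a group and depend on the fit.

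Lrp1, the large endocytic receptor (ENSMUSG00000040249, chromosome 10, 127374030 to 127457017, minus strand), was the most abundant member per length in Lenti-Klf4 and the second in Lenti-Ctrl. It stood at 1081, 1262, 1244 and 1221 CPM in the Lenti-Klf4 libraries, against 3169, 3220, 3063 and 3032 CPM in the Lenti-Ctrl libraries. The groups did not overlap, and replicate 1 was the lowest of Lenti-Klf4. The log2 fold change was -1.38 (SE 0.0434) and the adjusted p in edgeR was 2.81e-11, for a 2.60-fold lower level. The antisense gene Gm16217 overlaps Lrp1 by 1323 bases and had 0 counts in Lenti-Klf4 and 36 in Lenti-Ctrl, while Lrp1 had 333889 in Lenti-Klf4 and 775052 in Lenti-Ctrl.

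Vldlr, a receptor for VLDL and reelin (ENSMUSG00000024924, chromosome 19, 27193884 to 27231631, plus strand), stood at 123, 124, 127 and 135 CPM in the Lenti-Klf4 libraries, against 111, 111, 119 and 115 CPM in the Lenti-Ctrl libraries. The lowest Lenti-Klf4 library was just above the highest Lenti-Ctrl library. The log2 fold change was 0.16 (SE 0.0395) and the adjusted p in edgeR was 0.00322. In the authors' deposited table Vldlr had a log2 fold change of 0.08 with an adjusted p of 0.109 and was called stable. A DESeq2 fit of the deposited counts gave 0.14 with an adjusted p of 0.00265. The authors' value minus that of this fit was -0.067, as for the median gene (-0.067). Whether Vldlr passes an adjusted p of 0.05 thus differs between these sources, which are apart by a constant. Within a library the FPKM of Lrp1 was 5.38 ± 0.368 times that of Vldlr in Lenti-Klf4 and 15.6 ± 0.899 times in Lenti-Ctrl.

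Of the other 11 LDL receptor family genes tested, 2 were higher, 7 lower and 2 did not pass (3 higher and 6 lower with library totals alone). Lrp10 (log2 fold change -0.94) and Lrp12 (-0.52) fell. Lrpap1, the chaperone of LRP1 in the secretory pathway, fell to 76.8 ± 2.08 CPM in Lenti-Klf4, against 158 ± 2.40 CPM in Lenti-Ctrl (-1.04, adjusted p = 2.55e-11). Reln, reelin, a ligand of VLDLR and a marker of stellate cells, fell to 3.23 ± 0.474 CPM in Lenti-Klf4, against 43.1 ± 0.822 CPM in Lenti-Ctrl (-3.74, adjusted p = 4.36e-12).

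Ligands of LRP1 were mostly lower, 11 of 17 tested, with 5 higher and a median of -0.89 in a list that includes Apoe. Ccn2, connective tissue growth factor, fell to 167 ± 20.2 CPM in Lenti-Klf4, against 5158 ± 79.6 CPM in Lenti-Ctrl (log2 fold change -4.95, adjusted p = 1.03e-13). Psap, prosaposin, fell by 0.87 on the log2 scale. Lpl, which is also in this list, rose by 1.83.

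Scavenger receptors, which take up modified lipoproteins, fell for 10 of 11 tested and rose for 0 (median -3.27). Their summed level was 362 to 438 CPM in Lenti-Klf4 and 1887 to 1919 CPM in Lenti-Ctrl. Scarb1, the HDL receptor, changed least of those that passed, at 60.5 ± 4.71 CPM in Lenti-Klf4 and 74.3 ± 0.940 CPM in Lenti-Ctrl (-0.30, adjusted p = 0.000204), and it did not pass under library totals alone or on log2 FPKM. Scarb2, a lysosomal membrane protein (log2 fold change -1.40), Cd68 (-3.27) and Olr1, the receptor of oxidised LDL (-4.70), fell more. Cd68 and Marco of this list are also macrophage markers, and Stab2 is an endothelial one.

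The macrophage markers moved in the same direction as Apoe. Lyz2, lysozyme, averaged 169 ± 25.3 CPM in Lenti-Klf4 and 3659 ± 134 CPM in Lenti-Ctrl, and C1qa, complement C1q, 2.62 ± 0.583 CPM in Lenti-Klf4 and 266 ± 6.35 CPM in Lenti-Ctrl. Set against the sum of the 18 macrophage markers of the same library, Apoe was 0.355, 0.368, 0.336 and 0.368 in the Lenti-Klf4 libraries, against 0.266, 0.269, 0.258 and 0.266 in the Lenti-Ctrl libraries. This ratio was higher in Lenti-Klf4 but changed far less than either of its parts. Lyz2 alone made up most of the sum, whose mean was 275 CPM in Lenti-Klf4 and 6163 CPM in Lenti-Ctrl. The 18 markers fell by unlike amounts, with log2 fold changes from -6.73 to -2.10, so the ratio depends on the markers summed. The same ratio for Lrp1 was 4.41 ± 0.384 in Lenti-Klf4 and 0.507 ± 0.0147 in Lenti-Ctrl, and for Abca1 it was 0.158 ± 0.0138 in Lenti-Klf4 and 0.0215 ± 0.00163 in Lenti-Ctrl. Of the 10 genes, Apoc1 alone had a lower mean ratio in Lenti-Klf4, at 6.53e-05 ± 0.000131 in Lenti-Klf4 and 0.000478 ± 9.09e-05 in Lenti-Ctrl. Within Lenti-Klf4, replicate 1 was the lowest library for 7 of the 10 genes, including Apoe, Apob, Abca1 and Lrp1. It was also the lowest for the macrophage sum (218 CPM, against 278 to 304 CPM in the other 3). This was not particular to macrophages. The fibroblast sum (9945 CPM, against 11020 to 11472 CPM), the endothelial sum (103 CPM, against 136 to 146 CPM) and Klf4 (201 CPM, against 234 to 241 CPM) were lowest there too. Of the summed cell type markers, only those of cholangiocytes were highest in replicate 1 (756 CPM, against 703 to 722 CPM). Most of that sum was Spp1 (652 CPM in replicate 1, against 571 to 597 CPM). The cholangiocyte markers Krt19 (17.2 CPM, against 23.9 to 29.3 CPM) and Krt7 (46.2 CPM, against 59.0 to 61.9 CPM) were lowest there. Over the 8 libraries the genes whose log2 CPM was most like that of Apoe were Fcgr3, a macrophage Fc receptor, Sparc, a matrix protein, and Pip5k1c, a lipid kinase. Each had a Pearson r of 0.9999, but 1500 of 11505 genes compared had r over 0.99, since the libraries fall into 2 groups that differ in most genes.

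The members also changed order by level. By mean FPKM the order in Lenti-Klf4 was Lrp1 (67.4), Apoe (45.6), Apod (22.6), Nr1h2 (20.1), Vldlr (12.5), Abca1 (4.13), Abcg1 (2.00), Nr1h3 (1.29), Apob (0.479) and Apoc1 (0.0147), and no neighbours overlapped in their 4 libraries. In Lenti-Ctrl it was Apoe (661), Lrp1 (152), Nr1h2 (22.02), Abca1 (11.1), Vldlr (9.79), Apoc1 (3.40), Abcg1 (3.10), Apob (2.55), Nr1h3 (1.86) and Apod (0.0853), where only Apoc1 and Abcg1 overlapped.

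**Figure D3:**
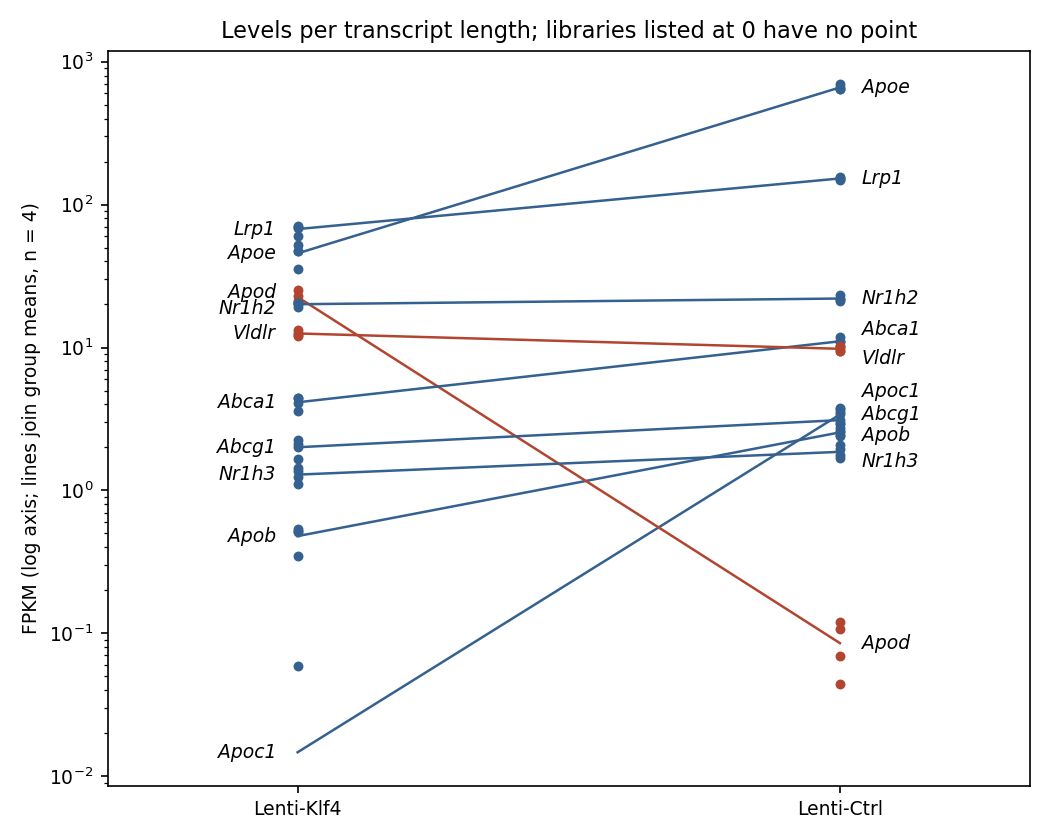
FPKM (log axis) of the 10 genes in each library of Lenti-Klf4 (left) and Lenti-Ctrl (right); points are libraries and lines join group means (n = 4 each), red for Apod and Vldlr and blue for the 8 genes that were lower. Apoe lies below Lrp1 in Lenti-Klf4 and above it in Lenti-Ctrl, and Apod is the third in Lenti-Klf4 and the lowest in Lenti-Ctrl.

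Genes of cholesterol handling inside the cell were divided. Of 19 tested, 7 were higher, 8 lower and 4 did not pass, with a median of -0.03; with library totals alone the split was 10 higher and 4 lower. The lysosomal exporters differed in sign: Npc1 fell to 124 ± 3.64 CPM in Lenti-Klf4, against 192 ± 7.59 CPM in Lenti-Ctrl (-0.64, adjusted p = 7.44e-09), and Npc2 rose to 520 ± 3.21 CPM in Lenti-Klf4, against 395 ± 2.69 CPM in Lenti-Ctrl (0.40, adjusted p = 5.42e-09). Soat1, which esterifies cholesterol, did not pass (158 ± 3.35 CPM in Lenti-Klf4 and 152 ± 7.36 CPM in Lenti-Ctrl) except as higher with library totals alone and FPKM, and Nceh1, a cholesteryl ester hydrolase, fell by 0.97. Of the 10 sterol sensing genes, 5 were higher, 2 lower and 3 did not pass, and with library totals alone 8 were higher and 1 lower. Insig1, the sterol-regulated anchor of SREBP, rose to 309 ± 8.94 CPM in Lenti-Klf4, against 61.3 ± 2.28 CPM in Lenti-Ctrl (2.34, adjusted p = 9.73e-14), with Sqle, squalene epoxidase (1.53), and Srebf2 (0.48). Of 18 genes of lipoprotein assembly and remodelling, 6 were higher and 9 lower (8 and 7 with library totals alone), the lower ones including the secretory genes P4hb (-0.72), Surf4 (-1.06) and Sar1a (-0.59).

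The authors' deposited table lists 7 of the 10 genes, without Apob, Apoc1 and Apod. It gives log2 fold changes of -4.14 for Apoe, -1.70 for Abca1, -1.46 for Lrp1, -0.91 for Abcg1, -0.81 for Nr1h3 and -0.41 for Nr1h2. The authors' deposited table calls Apoe, Abca1 and Lrp1 down, and Abcg1, Nr1h3, Nr1h2 and Vldlr stable; of these 4, Vldlr alone has an adjusted p above 0.05 there. Scaling by library totals alone moved the median gene by 0.19 on the log2 scale, and under it Nr1h2 was at -0.14 and Vldlr at 0.35, the smallest changes of the 10.

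**Figure D4:**
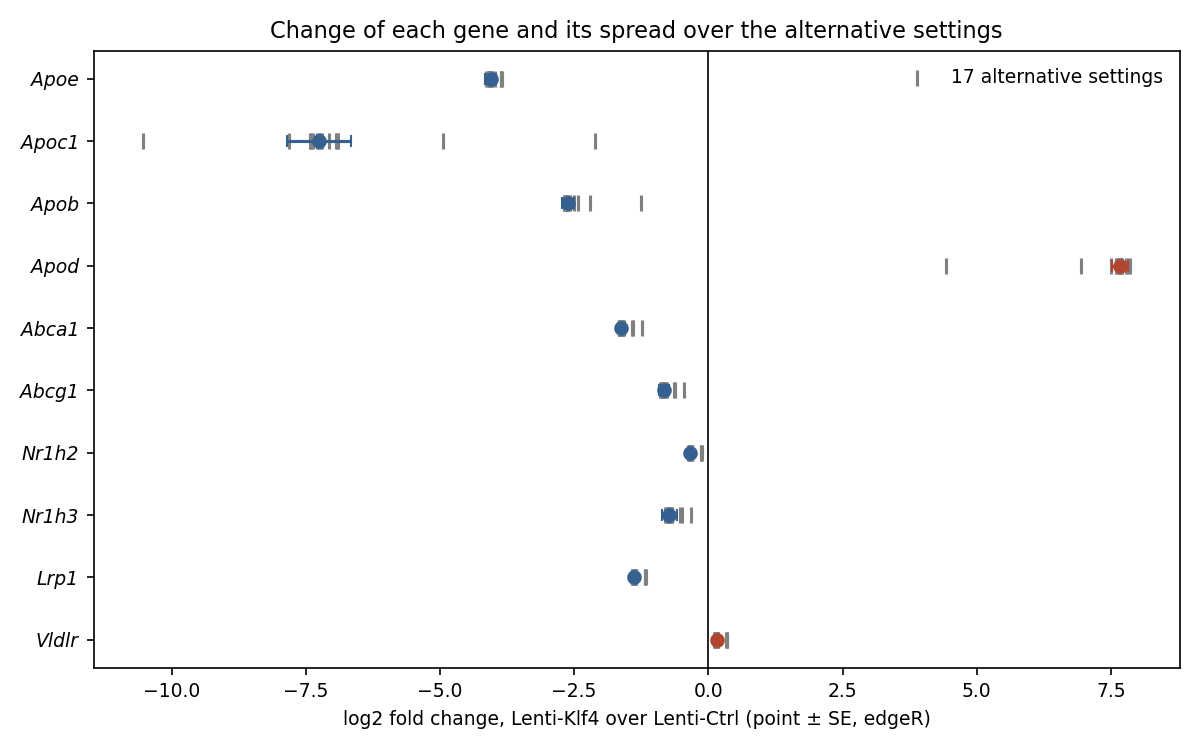
Log2 fold change of each of the 10 genes (Lenti-Klf4 over Lenti-Ctrl, point ± SE) with grey ticks for the 17 alternative settings. No tick crosses 0; the widest spread is that of Apoc1, from -10.53 to -2.11, and the ticks of Vldlr run from 0.11 to 0.35.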

How the data were processed

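RNA of 8 libraries was measured by paired-end sequencing of polyadenylated RNA, with a second strand marked by dUTP, per the labels' protocols. No source used here gives the strand setting of the counting step. Per the file headers, the authors deposited raw counts for each gene and library and, in further columns, FPKM values scaled by transcript length and library. DESeq2, StringTie 2.1.6, HISAT2 2.2.1, cutadapt 1.9 and the build GRCm39 are named in the submitters' processing notes. A second deposited table holds the authors' DESeq2 result per gene: mean normalised signal, log2 fold change with its SE, test score, p-value and adjusted p-value.

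The counts went through edgeR 4.0.16 (R 4.3.3): filterByExpr, TMM scaling, a quasi-likelihood F test on group alone, Benjamini-Hochberg adjustment over all 18439 genes tested, threshold 0.05. CPM are counts divided by the scaled library totals, and values are means ± SD. The SE given with an edgeR log2 fold change is its absolute value divided by the square root of the F value, since the test returns no SE. Folds are Lenti-Klf4 over Lenti-Ctrl unless written as lower. Depth was 57306334 to 87361995 counts per library. No pair of libraries agreed within sampling noise. Alternatives were RLE size factors, library totals alone, no filter, a filter of 1 CPM in 4 libraries, DESeq2 1.42.0, limma 3.58.1 (voom, and log2 FPKM with 1 or 0.1 added), the replicate number as a block, and each library left out. The edgeR steps were also run on simulated counts built from the main fit, and the outcome is not given here. Drawings were made with matplotlib 3.10.9.

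The members, the gene lists, the tests and the alternatives were chosen with earlier results of these data known, so no list is independent support. Named were the 10 members, Klf4, Postn and Clec3b, the 3 most abundant genes of each list by mean FPKM, a fixed set of well-known genes, and the 3 genes most correlated with Apoe; some genes that this rule names are not reported here, but count in their lists. Apol9a, Apoa1, Abca14, Cyp2e1, Ttr, Clec4f, Timd4, Marco, Mttp and the Y-linked genes were named after their values were seen. Promoter sequences are from RefSeq (GRCm38.p6), while the genes' positions come from the deposited table (GRCm39).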

Additional observations from a re-analysis of the deposited data

Results flagged for a closer look

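Of 173 groups of 4 libraries looked at, 11 held a library set far apart from the other 3, and chance flags about 1 in 20 groups. Of these, 7 concerned Lenti-Klf4 replicate 1, which was the lowest library in 6 of them. Among the members these were Apob at 4.94 CPM (others 7.14 to 7.55 CPM), Nr1h2 at 65.8 CPM (others 68.5 to 68.7 CPM) and Apoc1, where that library alone was above 0, at 0.0569 CPM. Scarb2 was at 244 CPM there (others 295 to 298 CPM), Ccn2 at 137 CPM (others 174 to 181 CPM), Lyz2 at 131 CPM (others 177 to 184 CPM) and Gas6, a portal fibroblast marker, at 198 CPM (others 237 to 242 CPM). Hdac3 was low in Lenti-Klf4 replicate 2, at 75.9 CPM. In Lenti-Ctrl, Clptm1 was low in replicate 1 at 203 CPM and Ecm1, a stellate cell marker, high in replicate 3 at 421 CPM. Clec3b was above 0 only in Lenti-Ctrl replicate 2 within its group, at 0.0684 CPM.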

How the results depend on the processing

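All 10 members kept their direction and an adjusted p below 0.05 in all 17 alternatives, and the largest adjusted p was 0.0213, for Vldlr. Log2 FPKM with 1 added gave smaller values for low genes by its construction, such as 4.44 for Apod, -1.26 for Apob and -2.11 for Apoc1. The count of genes changed was 11904 to 14047, and 13039 to 13188 with a library left out. The split was 6914 higher and 6393 lower with TMM, 8328 and 5172 with library totals alone, and 8542 and 5268 (1 added) or 8563 and 5308 (0.1 added) with FPKM; these settings moved the median gene by 0.19, 0.18 and 0.20. Counts of changed genes stayed within 1.5 times in 22 of the 23 gene lists; of hepatocyte markers 3 of 3 tested passed with the filter of 1 CPM, against 6 of 6. Lower calls fell to 2 of the LXR partners (6 with TMM) and 4 of the intracellular cholesterol genes (8 with TMM) under library totals alone.

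With the replicate block, 12918 genes (6730 higher, 6188 lower) and all 10 members passed. Deviations of libraries with the same number correlated at -0.0054 to 0.022, and others at -0.032 to 0.017. No pairing by number was thus seen in these values. Whether libraries with the same number share a mouse, culture or day is not stated, and these correlations cannot decide it.

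Among other named genes, 3 turned sign, and the cause was not tested. Tspo was lower in the main fit (-0.14, adjusted p = 0.0235 in edgeR), with overlapping groups. In edgeR it did not pass with no filter (adjusted p = 0.0721). It also did not pass without Lenti-Ctrl replicate 2 (0.0662), Lenti-Ctrl replicate 3 (0.0571) or Lenti-Klf4 replicate 3 (0.0531). Tspo gave 0.0513 with library totals alone, and 0.0560 and 0.0565 with FPKM (1 and 0.1 added). Abca7 gave 0.19, 0.16 and 0.19 in these settings, 0.0183 with no filter and -0.0482 to 0.0170 with a library left out. Abca2 gave -0.00870 with the filter of 1 CPM and -0.0297 to 0.0921 with a library left out. Apart from Tspo, of those the text gives as changed, Scarb1 did not pass with library totals alone (-0.10) or with FPKM (-0.088 and -0.099). Not passed with TMM but higher with library totals alone were Soat1 (0.25, adjusted p = 8.92e-05), Mylip (0.35, 0.0167), Abca2 (0.23, 0.0153) and Abca7 (0.19, 0.0108), and all 4 also with FPKM. Depth limits Apoc1 in Lenti-Klf4, where 5 counts remained, and Clec3b.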

Other observations

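Markers of portal fibroblasts, the labelled cells, and of other liver cells were also unequal. Mesothelial markers were higher for 5 and lower for 2 of 7 tested, with Msln at 359 ± 8.15 CPM in Lenti-Klf4 and 63.2 ± 3.51 CPM in Lenti-Ctrl (log2 fold change 2.51, adjusted p = 1.34e-13 in edgeR). Stellate cell markers were lower for 10 of 11, with Pdgfrb at 302 ± 16.6 CPM in Lenti-Klf4 and 777 ± 14.2 CPM in Lenti-Ctrl. Portal fibroblast markers were higher for 7 and lower for 5 of 14 tested, with a median log2 fold change of 0.61. Fbln2, the most abundant of them by mean FPKM, was among the lower ones, at 3572 ± 36.6 CPM in Lenti-Klf4 and 5481 ± 141 CPM in Lenti-Ctrl. Cholangiocyte markers were higher for 5 and lower for 3 of 10, with Spp1 at 601 ± 35.6 CPM in Lenti-Klf4 and 364 ± 7.36 CPM in Lenti-Ctrl.

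The authors' deposited table and a DESeq2 fit of the deposited counts gave the same log2 fold changes up to a constant: the median difference was -0.07, and 11327 of 11335 genes lay within 0.01 of it. The gene furthest from it was Klf4, at 1.59 in the authors' deposited table and 1.37 in the fit of the counts.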
